A study of Mus musculus with 13 samples.

Results

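The receptors for glutamate, GABA and glycine were examined in the cerebral meninges of newborn mice (postnatal day 0), as 48 genes of 19938 with a usable probe set. Members were taken by gene symbol: the AMPA, NMDA, kainate, delta and metabotropic glutamate receptor genes, the kainate receptor partners Neto1 and Neto2, and the GABA-A, GABA-B and glycine receptor genes. The current mouse annotation holds 54 symbols of these forms, and the other 6 genes are not analysed here. RNA of 4 *Pdgfc-/-; Pdgfra GFP/+* mutants, which lack the ligand PDGF-C and carry a GFP knock-in in 1 copy of the gene of its receptor, was compared with RNA of 9 control littermates by microarray (Affymetrix Mouse Gene 1.0 ST), with an array for each mouse. All 13 mice came from a single C57BL6 litter. The control group held every other genotype of the litter, namely Pdgfc+/+, Pdgfc+/- and Pdgfc-/- mice and, with the Pdgfra GFP/+ allele, Pdgfc+/+ and Pdgfc+/- mice. The labels do not say which control had which genotype. Both alleles are constitutive, so they were present in all cells of the animal and not in the meninges alone.

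Values are intensities given by PLIER, a model that summarises the probes of a probe set, and fold changes are differences of log2(intensity + 16). The verbs rose and fell are used of genes with an adjusted p under 0.05 (limma, two-sided, Benjamini-Hochberg over 19938 genes), and higher and lower of those among them that changed more than 2-fold. The median intensity of an array was 56.0 to 89.7 in mutants and 44.1 to 89.0 in controls. The meningeal fibroblast list, of 15 genes, had a summed intensity of 30021 to 45320 in mutants and 36209 to 48056 in controls, with no gene under 16 on all arrays of a group. In that list 2 genes rose and 3 fell (Ptgds, Crabp2 and Slc6a13, by 1.46, 1.25 and 1.08 on the log2 scale), and in the list of 11 reference genes 0 rose and 3 fell (Tfrc, Gusb and Sdha, by 1.38, 0.52 and 0.43). Both lists serve below as alternative centres of the arrays. Xist was at 2.24 to 4.77 in the 4 mutants and at 4.78 to 8.73 in controls 1, 5 and 8. In the other 6 controls it was at 536 to 1020, so only controls had the high values. Eif2s3y, a gene of the Y chromosome, showed the opposite pattern. Its intensities spanned 359 to 556 among mutants and 408 to 515 among controls 1, 5 and 8, while those 6 controls had 1.64 to 3.76. By both genes every mutant was of male type and 6 controls were of female type. Sex was therefore not balanced between the groups, and the Xist level stands in for it in the adjustment below. Control 2 had the lowest Pdgfc intensity of all mice, 5.88.

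Glutamate is the main excitatory transmitter of the brain, and GABA and glycine are the main inhibitory ones. AMPA, NMDA and kainate receptors are cation channels opened by glutamate, GABA-A and glycine receptors are chloride channels, and metabotropic glutamate and GABA-B receptors act through G proteins. Subunit composition changes as the brain matures: Grin2b, Gabra2, Gabra3, Gabra5 and Glra2 are known as subunits of the immature forebrain, whereas Grin2a and Glra1 gain weight after birth and Gabra6 belongs to cerebellar granule cells.

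Promoter windows, from 250 bases before to 50 bases after the annotated start, were taken from RefSeq (GRCm38.p6) and found for 36 of the 48 genes, with 44 windows in all. Among the 23 genes that rose, 17 had a window. The windows were searched on both strands for GGACAGC and TTCAGCAC, the right and left arms of the RE1 element bound by REST, a repressor of neuronal genes in other cell types. The 4 windows that hold the right arm are shown because they set 2 genes that rose, Glra2 and Gria2, beside 2 that did not pass the test, Glrb and Grm2. Each run has 100 bases upstream of the start, 5′ to 3′ on the strand of the gene, and all 4 genes lie on the minus strand. Capitals mark either arm or its reverse complement.
Glra2, chrX:165327394-165327493: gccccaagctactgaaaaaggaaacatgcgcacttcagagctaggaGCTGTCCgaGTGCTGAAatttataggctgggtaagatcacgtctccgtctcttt
Gria2, chr3:80802953-80803052: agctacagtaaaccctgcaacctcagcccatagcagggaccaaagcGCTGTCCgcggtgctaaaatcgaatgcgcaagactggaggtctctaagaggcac
Glrb, chr3:80913811-80913910: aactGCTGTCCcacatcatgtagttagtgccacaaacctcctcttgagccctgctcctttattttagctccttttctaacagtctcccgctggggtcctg
Grm2, chr9:106656260-106656359: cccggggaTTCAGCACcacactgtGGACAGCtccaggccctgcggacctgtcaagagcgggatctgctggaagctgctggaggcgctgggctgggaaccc
The right arm was in 4 of 44 windows of the receptor genes (9.09%) and in 6.56% of all 32851 windows. The left arm was in 2 of the 44 (4.55%), in Glra2 with 2 bases between the arms and in Grm2 with 8, and in 1.17% of all windows. These are matches of letters and not sites shown to be bound.

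Receptor genes rose in mutant meninges, and none fell. Of the 48 genes 23 rose (47.9%), against 8.58% of all genes tested, and 0 fell with limma (0 at an unadjusted p under 0.05 as well, and 0 by the methods' t-test), against 6.31% of all genes. With quantile normalization or with each array centred on its median, Gabrr2 was called as a fall (-0.31, adjusted p = 0.00778, and -0.33, adjusted p = 0.0218). In mutants 18 of the 48 genes were higher (3.28% of all genes) and 0 were lower (0.792% of all). The 4 mutants lay above all 9 controls for 19 genes (6.4% of all genes) and below them for 0 (3.04% of all). The median log2 fold change was 0.49 over the 48 genes and 0.0043 over all genes. Of the 6 X-linked genes 2 rose, Gabra3 and Glra2. After adjustment for the Xist level 20 of the 23 genes kept the call, and Grm7, Gabrb1 and Gabrg1 lost it. Without control 9, 25 receptor genes rose, and without control 2, 22 did. By the test of the study's methods, a fold over 2 and an unadjusted p under 0.05, 18 receptor genes were higher and 0 lower, against 3.28% and 0.797% of all genes. These are bulk samples, in which a change in the number of cells of a type and a change in RNA per cell cannot be told apart.

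**Figure D1:**
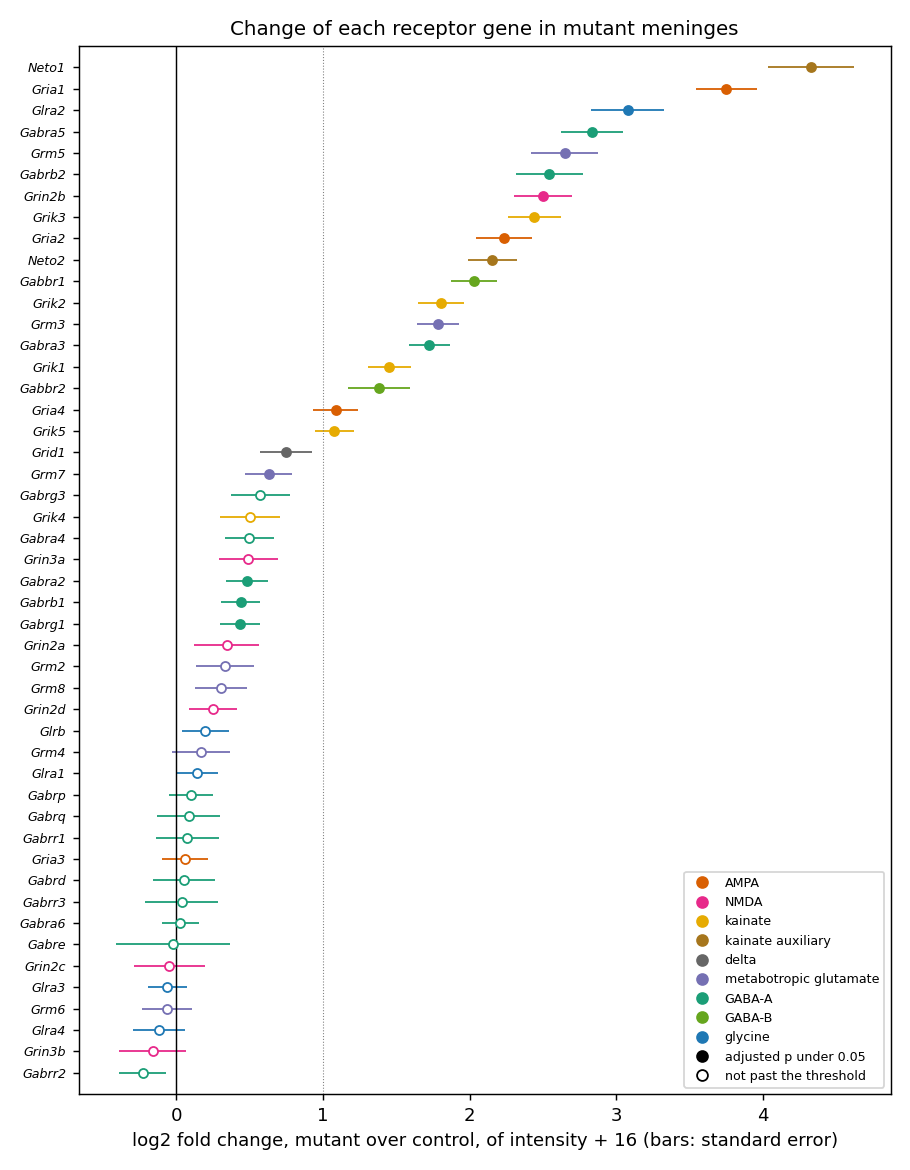
Log2 fold change, mutant over control, of intensity + 16 for each of the 48 receptor genes, with bars for the standard error, colours for the receptor class and filled points for genes past an adjusted p of 0.05. Neto1 (4.33) and Gria1 (3.75) lie at the top, and the 25 open points lie between -0.23 and 0.57.

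By transmitter, 14 of 25 glutamate receptor and Neto genes rose, with a median log2 fold change of 0.75. Neto1 and Neto2, which are partners and not receptor subunits, were both among the 14. Of 23 GABA and glycine receptor genes 9 rose, with a median of 0.20. The difference between these shares was not tested. Among the AMPA receptor genes, which carry most fast excitation, 3 of 4 rose and the median was 1.66. Gria1, which encodes the subunit GluA1, had intensities of 680, 804, 711 and 889 in the mutants, against a lowest value of 25.9, a median of 34.6 and a highest of 89.6 in the controls. Its log2 fold change was 3.75 (standard error, SE, 0.21, adjusted p = 2.55e-10). Gria2, whose edited subunit makes the channel impermeable to calcium, was at 365, 437, 324 and 398 in mutants and at 46.0, 68.9 and 134 (lowest, median and highest) in controls, a change of 2.23 (SE 0.19, adjusted p = 3.86e-08). For both genes the groups lay far apart.

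Gria4 changed less, with 197, 306, 232 and 281 in mutants and 83.2, 104 and 158 (lowest, median, highest) in controls, with a log2 fold change of 1.09 (SE 0.15, adjusted p = 2.72e-05). The X-linked Gria3 was the exception of the class. Its intensities were 231, 304, 224 and 371 in mutants and 202, 284 and 322 in controls, so mutant 4 alone lay above the controls, and its log2 fold change was 0.06 (SE 0.16, adjusted p = 0.966). It was called as a rise only with the arrays centred on fibroblast genes (0.35, adjusted p = 0.0114).

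In the NMDA receptor class, whose channels need glutamate and a co-agonist, 1 of 6 genes rose. That gene was Grin2b, which encodes the GluN2B subunit of immature synapses: it was at 273, 255, 257 and 308 in the mutants, against 21.9, 33.6 and 76.8 (lowest, median, highest) in the controls. The log2 fold change was 2.50 (SE 0.20, adjusted p = 1.21e-08), and all mutants were above all controls. Grin2a, the gene of GluN2A, overlapped, with 48.8, 20.9, 22.5 and 21.8 in mutants and 4.65, 20.9 and 35.6 in controls (0.34, SE 0.22, adjusted p = 0.435). Mutant 1 was the high mouse among the mutants.

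Grin3a, which encodes a glycine-binding subunit of juvenile receptors, had 125, 71.1, 88.2 and 130 in mutants and 40.7, 65.0 and 115 in controls, a log2 fold change of 0.49 (adjusted p = 0.122). It passed the test without control 4 (0.57, adjusted p = 0.0411) and centred on reference or fibroblast genes (adjusted p = 0.0342 and 0.0145). Grin2d, known from interneurons, had 69.3, 64.2, 38.8 and 70.9 in mutants and 32.5, 50.3 and 64.6 in controls (0.25, adjusted p = 0.452), and passed with the same centres (0.0420 and 0.0142). The log2 fold changes of Grin2c and Grin3b were -0.05 and -0.16, with groups that overlapped. The class median was 0.30.

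Of the 5 genes of kainate receptors, which modulate transmitter release and network excitability, 4 rose, each with all mutants above all controls, and the median log2 fold change was 1.45. Grik3 was at 253, 317, 271 and 337 in mutants, against 21.1, 39.9 and 62.0 (lowest, median, highest) in controls, a change of 2.44 (SE 0.18, adjusted p = 6.67e-09). Grik2 had 121, 145, 103 and 142 in mutants and 13.4, 23.6 and 40.9 in controls (1.80, SE 0.16, adjusted p = 4.35e-08).

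Grik1 followed with 119, 130, 108 and 133 in mutants and 20.3, 35.2 and 53.3 in controls (1.45, SE 0.15, adjusted p = 3.93e-07). Grik5, which encodes a subunit that needs Grik1 to Grik3 partners to form a channel, had 210, 174, 154 and 219 in mutants and 63.2, 83.0 and 103 in controls (1.08, SE 0.13, adjusted p = 6.25e-06). Grik4, of the same subunit type as Grik5, overlapped: it was at 87.3, 50.7, 41.4 and 71.7 in mutants and 21.9, 37.3 and 60.1 in controls (0.50, SE 0.20, adjusted p = 0.126). It was called as a rise when the arrays were rescaled (adjusted p = 0.00181 with quantile normalization, and 0.0375, 0.0159 or 0.0177 where reference genes, fibroblast genes or the array median set the centre).

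The Neto genes encode single-pass membrane proteins that slow the gating of kainate receptors, and both rose. Neto1 had the largest log2 fold change of the 48 genes, 4.33 (SE 0.29, adjusted p = 2.29e-09). It was at 977, 1483, 1239 and 1407 in mutants, against 7.49, 54.9 and 97.5 (lowest, median, highest) in controls, so even the lowest mutant was far above the highest control. Neto2 was at 425, 489, 346 and 397 in mutants and 50.4, 84.2 and 106 in controls (2.16, SE 0.16, adjusted p = 8.62e-09). Grid1, a delta receptor gene whose protein binds cerebellins across the synapse, rose by less: 75.4, 54.7, 48.6 and 60.7 in mutants and 14.0, 29.4 and 44.6 in controls (0.75, SE 0.18, adjusted p = 0.00529).

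**Figure D2:**
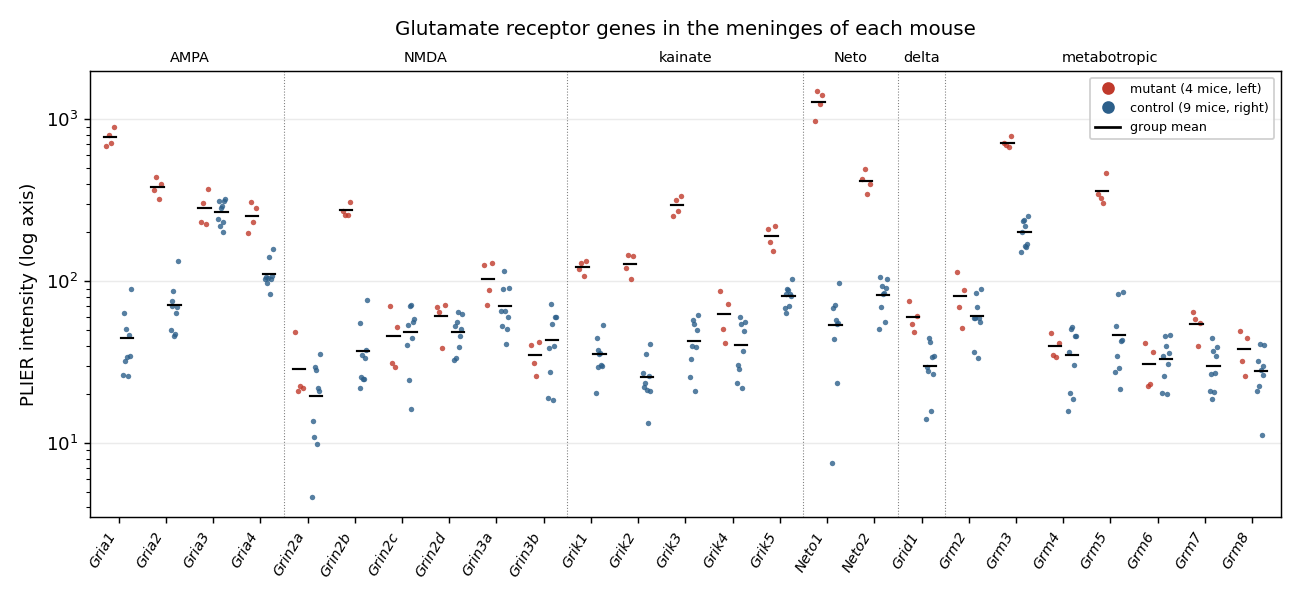
PLIER intensity (log axis) of the 25 glutamate receptor and Neto genes in each of the 4 mutants (red, left) and 9 controls (blue, right), with a bar at the group mean. Red points of Gria1, Grin2b, Grik1 to Grik3, Neto1, Neto2, Grm3 and Grm5 stand clear of the blue ones, while those of Grin2c and Grm6 lie within the range of the blue ones.

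Of 7 metabotropic glutamate receptor genes 3 rose, and the class median was 0.33. Grm5, the group I receptor that couples to phospholipase C, was at 345, 325, 305 and 462 in mutants and at 21.5, 42.7 and 85.2 (lowest, median, highest) in controls, with a log2 fold change of 2.65 (SE 0.23, adjusted p = 4.35e-08). Grm3, a group II receptor that lowers cyclic AMP and is found in neurons and astrocytes, had 709, 697, 675 and 788 in mutants and 152, 201 and 254 in controls (1.78, SE 0.14, adjusted p = 1.84e-08). For both genes the groups were well apart.

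The other group II gene, Grm2, overlapped, with 114, 69.0, 51.1 and 88.0 in mutants and 33.6, 59.2 and 89.0 in controls (0.33, SE 0.20, adjusted p = 0.378). In group III, receptors that act mostly at nerve terminals, Grm7 rose by 0.63 (SE 0.16, adjusted p = 0.00957). It was at 64.3, 58.5, 39.8 and 55.5 in mutants and 18.8, 27.2 and 44.5 in controls, and mutant 3 lay below the highest control. Adjusting for the Xist level took the call away (0.60, adjusted p = 0.112). Grm8, Grm4 and Grm6, the last known from retinal bipolar cells, had log2 fold changes of 0.31, 0.17 and -0.07 and did not pass the test.

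GABA-A receptors are pentamers of alpha, beta and mostly gamma subunits, and 6 of 16 genes rose, with a class median of 0.27. By subunit family, 3 of 5 alpha, 2 of 2 beta and 1 of 3 gamma and delta genes rose, and 0 of the 6 genes of the epsilon, pi, theta and rho families (0 at an unadjusted p under 0.05). Gabra5, known from extrasynaptic receptors of hippocampus and young cortex, was at 307, 350, 223 and 254 in mutants and at 10.1, 22.2 and 54.6 (lowest, median, highest) in controls, with a log2 fold change of 2.83 (SE 0.21, adjusted p = 6.15e-09). Gabrb2 was at 324, 380, 335 and 405 in mutants and 25.3, 45.8 and 115 in controls (2.54, SE 0.23, adjusted p = 6.55e-08). Its other 2 probe sets gave 2.63 and 2.62. The X-linked Gabra3, a subunit of the immature cortex, had 320, 481, 369 and 397 in mutants and 76.3, 108 and 126 in controls (1.73, SE 0.14, adjusted p = 1.36e-08). These 3 genes were the GABA-A genes with all mutants above all controls.

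The other 3 rises were small and depended on single mice and on the processing. Gabra2, a main alpha subunit of the newborn forebrain, was at 159, 222, 162 and 242 in mutants and 106, 137 and 184 in controls, with a log2 fold change of 0.48 (SE 0.14, adjusted p = 0.0287). Mutants 1 and 3 lay below the highest control, control 3. Without mutant 2, mutant 4, control 5 or control 8 it missed the threshold (adjusted p = 0.113, 0.128, 0.0540 and 0.0501). The call was also lost with quantile normalization (0.0571), centring on the array median (0.203), unequal variances (0.205) or a block for the replicate number (0.223). Over 30 alternatives Gabra2 kept the call in 22. Gabrb1 had 34.0, 31.0, 20.6 and 34.2 in mutants and 10.7, 18.2 and 24.6 in controls (0.44, SE 0.13, adjusted p = 0.0312). Its adjusted p was 0.113, 0.0857 and 0.0981 without mutant 1, 2 or 4, and 0.0524 and 0.0559 without control 1 or 8. Gabrg1 lay near the added constant of 16 in most mice, with 16.2, 22.0, 17.5 and 24.5 in mutants and 4.76, 11.3 and 18.8 in controls (0.43, SE 0.14, adjusted p = 0.0358). It missed the threshold without mutant 2 or 4 (0.106 and 0.120) and without control 1, 2, 5, 6, 7 or 8 (0.0522 to 0.0598). Centring on the array median (0.105) or a constant of 32 (0.0718) also took the call away. Over 28 alternatives Gabrg1 kept the call in 14.

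Gabra4 and Gabrg3 lay just outside the threshold. Gabra4 was at 45.0, 36.8, 24.0 and 49.2 in mutants and 10.7, 23.6 and 32.6 in controls (0.50, adjusted p = 0.0508), and passed without mutant 3, control 4 or control 9 (0.0163, 0.0485 and 0.0336). Gabrg3 was at 77.5, 35.6, 33.5 and 46.5 in mutants and 13.8, 24.3 and 50.8 in controls (0.57, adjusted p = 0.0629), and passed without the same mice (0.0489, 0.0171 and 0.0468). Both also passed under each rescaling: with quantile normalization or centred on the array median, reference genes or fibroblast genes, the adjusted p was 5.78e-04, 0.00823, 0.0103 and 0.00254 for Gabra4 and 0.00261, 0.0197, 0.0240 and 0.0131 for Gabrg3. Gabrd, known from extrasynaptic receptors, had 143, 98.2, 74.6 and 143 in mutants and 68.1, 116 and 159 in controls (0.05, adjusted p = 0.981). Gabra6, the cerebellar subunit, was at 16.01, 8.41, 10.6 and 12.3 in mutants and 5.84, 12.4 and 14.4 in controls (0.03, adjusted p = 0.987). The rho genes Gabrr1, Gabrr2 and Gabrr3, known from the retina, had log2 fold changes of 0.07, -0.23 and 0.03, and Gabrp, Gabrq and Gabre had 0.10, 0.08 and -0.02. The groups overlapped for all 6.

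GABA-B receptors are obligate dimers of the products of Gabbr1, which binds GABA, and Gabbr2, which couples to the G protein. Both genes rose, with all mutants above all controls. Gabbr1 was at 648, 707, 644 and 819 in mutants and 114, 149 and 225 (lowest, median, highest) in controls, with a log2 fold change of 2.03 (SE 0.16, adjusted p = 8.96e-09). Gabbr2 was at 246, 155, 142 and 159 in mutants and 27.0, 64.3 and 78.2 in controls (1.38, SE 0.21, adjusted p = 6.71e-05). Mutant 1 was the highest mouse for Gabbr2 and not for Gabbr1.

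Among the 5 glycine receptor genes 1 rose, and the class median was 0.14. Glra2, the X-linked alpha subunit of the embryonic and newborn brain, was at 251, 326, 292 and 279 in mutants and 5.38, 21.7 and 63.6 in controls, with a log2 fold change of 3.08 (SE 0.25, adjusted p = 1.67e-08). The highest control value was that of control 9, and the other 8 controls were at 28.2 or less. Glrb, whose product anchors the receptor to gephyrin, was at 452, 845, 584 and 777 in mutants and 434, 556 and 709 in controls (0.20, SE 0.16, adjusted p = 0.610), and the groups overlapped. It was called as a rise when centred on reference genes (adjusted p = 0.0127) or on fibroblast genes (0.00325). Glra1, the adult spinal cord subunit, had 44.1, 23.1, 31.4 and 33.0 in mutants and 16.2, 29.2 and 35.3 in controls (0.14, adjusted p = 0.741). Glra3 and Glra4 had log2 fold changes of -0.06 and -0.12, and all Glra3 values were under 16.

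**Figure D3:**
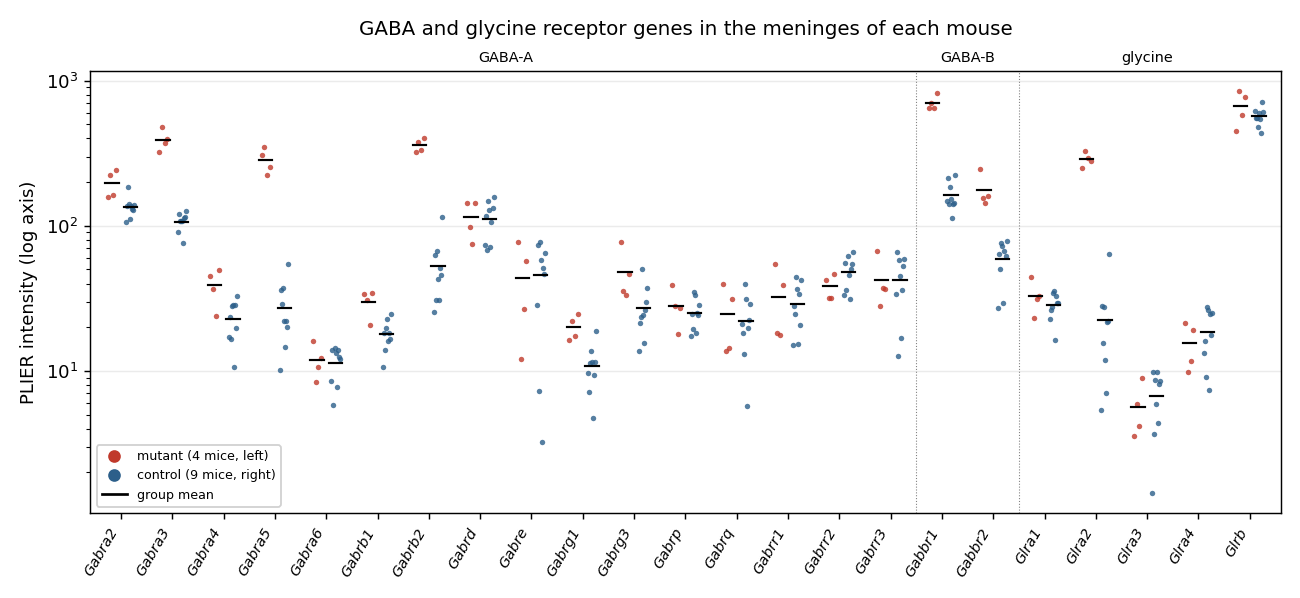
PLIER intensity (log axis) of the 23 GABA and glycine receptor genes in each of the 4 mutants (red, left) and 9 controls (blue, right), with a bar at the group mean. Gabra3, Gabra5, Gabrb2, Gabbr1, Gabbr2 and Glra2 have all red points above all blue ones, and Gabrd, Gabra6 and Glrb do not.

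The log2 ratio of related subunits was compared in each mouse for 6 pairs, which removes any factor that scales a whole array, apart from the added constant. Each was tested with a two-sided exact permutation test over 715 splits of the mice, in which the smallest possible p is 0.0014, adjusted over the 6 pairs. Gria2 over Gria4 averaged 0.56 ± 0.18 in mutants and -0.58 ± 0.35 in controls (SD, n = 4 and 9; exact permutation, adjusted p = 0.00168), a difference of 1.14. Grin2b over Grin2a averaged 2.74 ± 0.41 in mutants and 0.58 ± 0.41 in controls, a difference of 2.16, with the same adjusted p. In both pairs all mutants lay above all controls.

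Glra2 over Glra1, the neonatal over the adult glycine receptor alpha subunit, averaged 2.64 ± 0.40 in mutants and -0.30 ± 0.51 in controls, a difference of 2.94. Gabra5 over Gabra6 averaged 3.42 ± 0.33 in mutants and 0.61 ± 0.40 in controls, and Grik2 over Grik4 averaged 0.90 ± 0.37 in mutants and -0.41 ± 0.32 in controls, differences of 2.81 and 1.30. These 3 pairs also reached the smallest possible p (exact permutation, adjusted p = 0.00168). Gabra6 was at 16.01 or less in every mouse, near or under the added constant, so its pair repeats the change of Gabra5 (2.83) and gives no comparison of its own. Grin2a and Glra1 were dim too, at 4.65 to 48.8 and 16.2 to 44.1 over all mice. The differences of their pairs, 2.16 and 2.94, thus mostly repeat the changes of Grin2b (2.50) and Glra2 (3.08). Grin3a over Grin3b averaged 1.21 ± 0.22 in mutants and 0.56 ± 0.44 in controls, a difference of 0.65 (exact permutation, adjusted p = 0.0196), with groups that overlapped. A change of these ratios says that 2 probe sets changed by unequal amounts and gives no proportion of subunits.

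**Figure D4:**
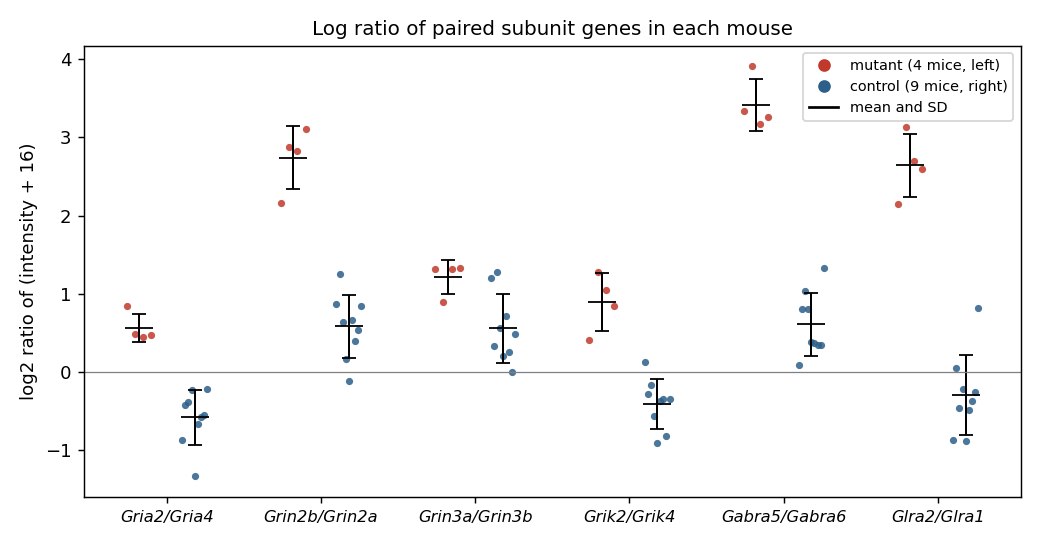
Log2 ratio of (intensity + 16) for 6 pairs of subunit genes in each of 4 mutants (red, left) and 9 controls (blue, right), with the mean and SD of each group. Mutants lie above all controls for every pair except Grin3a/Grin3b, where 1 mutant at 0.89 lies below the highest control at 1.28.

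Mice of a group differed as well. The mean of log2(intensity + 16) over the 23 genes that rose was 7.80 to 8.08 in mutants and 5.65 to 6.60 in controls, and over the other 25 genes 5.71 to 6.28 in mutants and 5.35 to 6.22 in controls. The genes were split by the test on these same values, so the difference between groups is no separate result here. Control 9 had the highest control value for 19 of the 23 genes, and control 1 the lowest for 12 and control 6 for 8. Among mutants, mutant 4 was the highest for 12 of the 23 genes and mutant 3 the lowest for 13. Pan-neuronal genes moved with these values. All 19 measured genes of that list rose (median 2.98), with a summed intensity of 18337 to 22706 in mutants and 2057 to 5500 in controls and no gene under 16 on all arrays of a group. Their mean log2 level was 9.43 to 9.67 in mutants, the lowest being mutant 3, and 6.23 to 7.60 in controls, where control 6 (6.23) and control 1 (6.29) were the lowest and control 9 the highest.

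Among the controls array brightness moved with the receptor values too: the arrays of controls 6, 3 and 1 had the lowest control medians (44.1, 51.8 and 52.9) and that of control 9 the highest (89.0). Across the mutants the median was 89.7, 67.3, 56.0 and 85.9. Mutant 1, with the brightest array of all, had the lowest mutant value for 9 of the 23 genes, and its mean over them was 7.93, against 8.06 in mutant 2. Other neuronal lists also shifted: 9 of 12 interneuron genes, 7 of 11 projection neuron genes and 5 of 8 Cajal-Retzius genes rose, with medians of 3.09, 0.80 and 0.59. Of 10 astrocyte and radial glia genes 0 rose and 3 fell, with a median of 0.08. Those that fell, Gjb6, Slc1a3 and Gja1, were bright in controls, with means of 1529, 1534 and 8179. In the same list 6 genes had positive changes, 2 of them at an unadjusted p under 0.05 (limma). Of 10 microglia and macrophage genes 1 rose and 8 fell. Of 10 endothelial genes 0 rose and 7 fell. Of 9 oligodendrocyte lineage genes 1 rose and 1 fell, and of 10 mural cell genes 0 rose and 0 fell. Over all genes tested 8.58% rose and 6.31% fell. The calls were rerun with other array scalings: centred on the array median 24 receptor genes rose, and without the 4 dimmest arrays 23 did. How large a part cell composition or array brightness had in the receptor values was not tested.

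**Figure D5:**
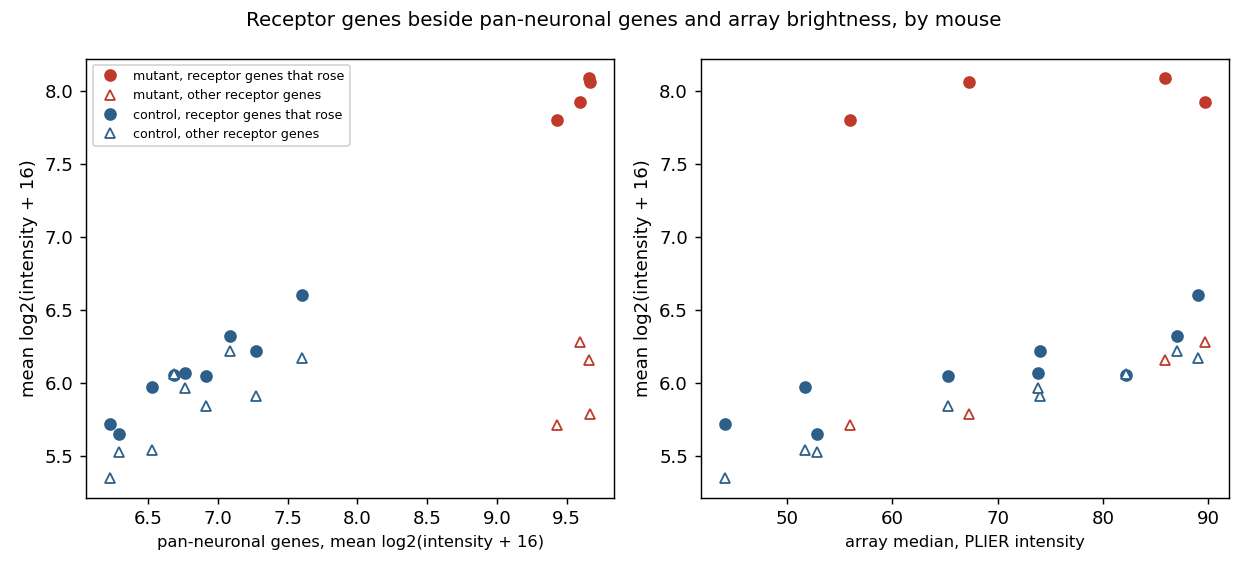
Mean log2(intensity + 16) of the 23 receptor genes that rose (filled circles) and of the other 25 (open triangles) in each mutant (red) and control (blue), against the mean of the pan-neuronal genes (left) and the median intensity of the array (right). Filled red circles lie at 7.80 to 8.08, above the filled blue ones at 5.65 to 6.60, while the triangles of both groups share a range. The genes were split by the test on these same values, so this contrast follows from the split.

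Of 34 measured genes whose products traffic, anchor or modify the glutamate receptors, 20 rose, 2 fell and 12 did not pass the test, with a median log2 fold change of 0.77. Cacng3, a transmembrane AMPA receptor regulatory protein, was at 366, 446, 319 and 379 in mutants and at 8.36, 29.9 and 37.8 (lowest, median, highest) in controls (3.23, adjusted p = 3.57e-10). Cnih2, a cornichon that carries AMPA receptors to the surface, had 490, 519, 366 and 514 in mutants and 43.1, 62.7 and 105 in controls (2.61, adjusted p = 1.05e-09). Both were well apart between the groups.

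The scaffold genes Shank1 and Dlg4, which encodes PSD-95, had log2 fold changes of 2.95 and 1.91 (adjusted p = 1.41e-09 and 7.19e-09). Homer3 (-0.53, adjusted p = 0.0351) and Dlg1 (-0.39, adjusted p = 0.0467), scaffold genes of the same families as members that rose, fell with groups that overlapped. Of 30 alternative settings they lost the call in 16 and 18, among them centring on reference or fibroblast genes and leaving out mutant 1, 2 or 3. Some rises were as unstable: Dlg3 (0.45, adjusted p = 0.0362) and Cacng8 (0.53, adjusted p = 0.0387) lost the call in 14 and 12 settings. With unequal variances 13 of the 34 rose and 0 fell.

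For inhibitory receptors 7 of 16 measured partner genes rose and 0 fell (2 at an unadjusted p under 0.05). Their median log2 fold change was 0.38. Slitrk3, an adhesion protein of inhibitory synapses, was at 118, 111, 122.8 and 136 in mutants and 19.2, 44.03 and 56.7 in controls (1.37, adjusted p = 2.40e-05). Gphn, which encodes the scaffold gephyrin, was at 292, 375, 317 and 343 in mutants and 177, 212 and 248 in controls (0.62, adjusted p = 0.00155). The groups did not overlap for either. Nlgn2, the neuroligin of inhibitory synapses, and Gabarapl1 rose by 0.66 and 0.64 (adjusted p = 6.82e-04 and 0.00585). Shisa7 rose by 0.72 (adjusted p = 0.0263) and lost the call in 9 settings. After adjustment for the Xist level, or with unequal variances, 3 of the 16 genes rose, and with quantile normalization 3 fell.

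Genes that make or move the transmitters, listed with the chloride cotransporters Slc12a2 and Slc12a5, went both ways. Of 18 measured genes 7 rose and 4 fell, with a median of 0.11. Slc12a5 was among those that rose (0.76, adjusted p = 0.00826). The falls numbered 7 with quantile normalization and 1 with unequal variances. Gad2, which makes GABA, was at 664, 799, 614 and 856 in mutants and 29.2, 59.4 and 98.7 in controls (3.34, adjusted p = 8.06e-10), and the vesicular GABA and glycine transporter Slc32a1 was at 620, 702, 534 and 660 in mutants and 65.0, 125 and 160 in controls (2.31, adjusted p = 3.06e-08). Slc17a6, a vesicular glutamate transporter, rose by 1.75 (adjusted p = 6.24e-07), while Slc17a7, which serves the mature cortex, had 0.11 (adjusted p = 0.878).

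The 4 genes that fell encode uptake transporters, as do 2 of those that rose, Slc1a1 (1.53, adjusted p = 1.15e-06) and Slc6a11 (0.56, adjusted p = 0.0350, lost in 13 of the 30 settings). Slc6a9, the glycine transporter GlyT1, was at 127, 161, 149 and 266 in mutants and 464, 559 and 695 (lowest, median, highest) in controls, a log2 fold change of -1.67 (adjusted p = 2.34e-07), so that no mutant reached the lowest control. The GABA transporters Slc6a13, which is also on the meningeal fibroblast list, and Slc6a12 fell by 1.08 and 1.12 (adjusted p = 4.92e-05 and 1.28e-04), and Slc1a3, the glial glutamate transporter GLAST, by 0.60 (adjusted p = 0.00665). With unequal variances Slc6a9 alone of these 4 kept its call.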

How the data were processed

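Meninges of 4 mutants and 9 controls were hybridised 1 mouse per array. The authors summarised raw data with PLIER, and the deposited table holds linear intensities of 35557 probe sets. The PLIER version, how background was treated and whether arrays were scaled to each other are not given in the sources used here. Arrays have no read depth, so the number of arrays limits the precision, and no detection calls were used. Of the probe sets 21789 carry 1 gene symbol in the platform's annotation, 1621 carry several and 12147 are not listed. The brightest probe set stood for a gene with several (999 genes), which left 19938 genes. All 48 receptor genes were matched to RefSeq by gene ID.

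Mutants were compared with controls on log2(intensity + 16) by the two-sided moderated test of limma 3.58.1 under R 4.3.3, adjusted by Benjamini-Hochberg over all 19938 genes. With 18.0% of values under 16, a fold change understates the ratio of dim genes. The fit was tested on simulated data with known changes. The pairs were tested by exact permutation of the mice. Every receptor gene is named. Those given mouse by mouse are up to 4 of a class with the smallest adjusted p and the genes of the pairs, and further genes given so were added after their values were seen. Of each list of partner genes, up to 4 with the smallest adjusted p were to be named, and others were added likewise. Members and lists were chosen with earlier results of these data known. Alternatives were other tests, scalings, constants and filters, adjustment for Xist, a block for the replicate number, and runs that left out each mouse in turn. The same alternatives were added for the partner lists after the data were seen. The labels give the mice as biological replicates. Plots were made in Python 3.11.15 with matplotlib 3.10.9.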

Additional observations from a re-analysis of the deposited data

Results flagged for a closer look

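Among 96 sets of values, each a receptor gene in the mice of 1 group, 2 had a mouse far from the others of its group, where chance gives about 4.8 (1 in 20). Grin2a was at 48.8 in mutant 1, against 20.9 to 22.5 in the other mutants. Gabra2 was at 184 in control 3, against 106 to 141 in the other controls.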

How the results depend on the processing

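Of the 23 genes that rose, 19 kept the call in a fit with a replicate block, which rests on the mutants and controls 1 to 4; Grid1, Gabra2, Gabrb1 and Gabrg1 lost it, and 3 in place of 6 GABA-A genes rose. Deviations of same-numbered mice correlated at -0.34, 0.16, 0.31 and -0.09, which gave no ground for pairing them. Leaving out each mouse gave 20 to 26 rises, and 3 to 8 among GABA-A genes. Without the dimmest 50% of genes, where 17 receptor genes were still tested, 14 rose, 3 of them GABA-A and 1 among the GABA-B and glycine receptor genes. Centring on fibroblast genes gave 32 rises, 5 of them among metabotropic glutamate receptors, and centring on reference genes 29; genes of both lists fell in mutants. These moved the median of all genes to 0.30 and 0.25, and array quality weights to -0.11. With quantile normalization or centring on the array median 1 receptor gene, Gabrr2, fell, and 0 under every other alternative run. Over all the alternatives no called receptor gene turned direction, and the call was lost 33 times and gained 33 times among single receptor genes. The 6 pairs were rerun with quantile normalization, other constants, the mean of probe sets, without the 4 dimmest arrays and without each mouse. In those runs the pairs kept their side of the threshold. They were not rerun with adjustment for Xist, the replicate block or array quality weights.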
